A study of Mus musculus with 6 samples.

Results

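The clustered protocadherins are 58 adhesion genes that lie side by side on mouse chromosome 18 in 3 families named alpha, beta and gamma. They were chosen by name, as every row of the deposited gene table whose symbol is that of a clustered protocadherin and that held at least 10 counts summed over 6 libraries, which gave 58 of the table's 33182 genes: 14 alpha, 22 beta and 22 gamma. All 58 rows with such a name reached the count minimum, the lowest being Pcdhb1 with 54 summed counts, followed by Pcdha8 with 149. The libraries were made from polyadenylated RNA of the motor cortex at day 120. Low-intensity pulsed ultrasound, as the series calls it, had been given to the SOD1G93A mice of 3 libraries, and 3 further libraries came from SOD1G93A mice labelled as controls. Both groups therefore carry the same transgene, a mutant human SOD1 used to model amyotrophic lateral sclerosis, and the comparison is of ultrasound against control within that line. The labels used here give neither the age at which treatment began, its dose, the sex, nor whether the controls had a sham exposure, and nothing in them ties each library to an animal of its own, so a p-value here reflects only how these 6 libraries vary.

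Clustered protocadherins are cadherin-like proteins of the cell surface that bind the same protein on a neighbouring cell. Each neuron transcribes its own small selection of the alternate alpha, beta, gamma A and gamma B genes from separate promoters, while the C-type genes, Pcdhac1, Pcdhac2 and Pcdhgc3 to Pcdhgc5, follow more regular, cell-type-dependent patterns. The resulting combinations let branches of 1 neuron recognise and avoid each other, and gamma protocadherins also support neuronal survival and dendrite growth. Each alpha and gamma gene contributes its own first exon, which codes for the extracellular and transmembrane parts, and this is spliced to constant exons that all genes of the family share. Beta genes have no such shared exons.

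The shared exons bear on every value of a single alpha or gamma gene. In the GENCODE M21 annotation, each of the 14 alpha genes had at least 2860 exon bases in common with the others, a median of 53.4% of its exon bases. Each of the 22 gamma genes had at least 2116 such bases, a median of 44.8%. Only 2 of the 22 beta genes, Pcdhb21 and Pcdhb22, had exon bases in common, 455 of them at the end of the first and the start of the second. The deposited table likewise has the 22 gamma genes end within 3 bases of each other, at position 37974926 of chromosome 18, plus strand, with starts from 37794846. The alpha genes reach from 37063237 to 37320714 and the beta genes from 37397991 to 37657532. These are the positions in the table: the submitters' processing notes name mm10, but 0 of the 58 genes had the same start and end in GENCODE M21 on GRCm38, so the assembly behind them is not known here. How the counting assigned read pairs from exons shared by several genes is not stated by the labels or notes, and the split of counts among alpha genes and among gamma genes is uncertain for that reason.

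Libraries held 42726633 to 45885619 counts with ultrasound and 38202541 to 60088636 in controls. Sod1 had 32.0 to 36.9 FPKM with ultrasound and 33.3 to 38.6 FPKM in controls, where FPKM is the authors' value per transcript length and library size, and whether reads of the human transgene are counted there is not given. All 10 excitatory cortical neuron markers and all 8 interneuron markers were above the expression minimum used for testing. Taken relative to each marker's own mean on the log2 scale, the excitatory markers had a median of -0.62 in control 3, 0.53 in control 2 and 0.01 in control 1. That median was -0.16 to 0.29 in the ultrasound libraries. Control 3 also held olfactory bulb transcripts: the 8 markers summed to 131.5 FPKM there, against 10.2 to 20.9 FPKM in the ultrasound libraries and 12.2 and 12.6 FPKM in controls 2 and 1. The 8 choroid plexus and ependymal markers summed to 276.7 FPKM in ultrasound 3, of which Ttr gave 235.3 FPKM, where it had 7.08 and 12.7 FPKM in ultrasound 1 and 2 and 1.63 to 3.88 FPKM in controls. The other 7 summed to 21.1 to 41.5 FPKM with ultrasound and 25.6 to 35.4 FPKM in controls. Enpp2 gave most of that sum, with 17.0 to 37.0 FPKM in a library. Of the rest, Kl, Foxj1, Folr1 and Otx2 were also highest in ultrasound 3, at 2.04, 1.88, 0.796 and 0.175 FPKM. Clic6 and Aqp1 were highest in control 3, at 3.49 and 3.12 FPKM. Striatal markers ranged from 338.4 to 547.2 FPKM with ultrasound and from 135.2 to 573.1 FPKM in controls, lowest in control 2 and highest in control 3. Ultrasound 2 had the largest share of 18S ribosomal RNA counts, 9.18%, against 0.655% and 1.13% in the other two ultrasound libraries and 0.561% to 4.68% in controls. In bulk tissue, fewer cells of a type and less RNA per cell cannot be told apart, which touches every level given here.

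Levels per gene were compared as FPKM, since counts grow with transcript length. The gamma family was the most abundant, with 109.1 to 154.5 FPKM summed over its genes with ultrasound and 117.3 to 141.9 FPKM in controls. Beta genes summed to 20.4 to 27.3 FPKM with ultrasound and 21.4 to 32.2 FPKM in controls, and alpha genes to 13.8 to 26.6 FPKM with ultrasound and 12.3 to 21.6 FPKM in controls. Mean FPKM over the 6 libraries ran from 0.0825 (Pcdha8) to 6.88 (Pcdhac2) among alpha genes, from 0.0712 (Pcdhb1) to 3.48 (Pcdhb20) among beta genes and from 0.568 (Pcdhga8) to 18.3 (Pcdhgb8) among gamma genes. A mean of at least 0.5 FPKM was required for testing, which 53 of the 58 passed. Pcdha2, Pcdha8, Pcdhb1, Pcdhb4 and Pcdhb21 did not.

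**Figure D1:**
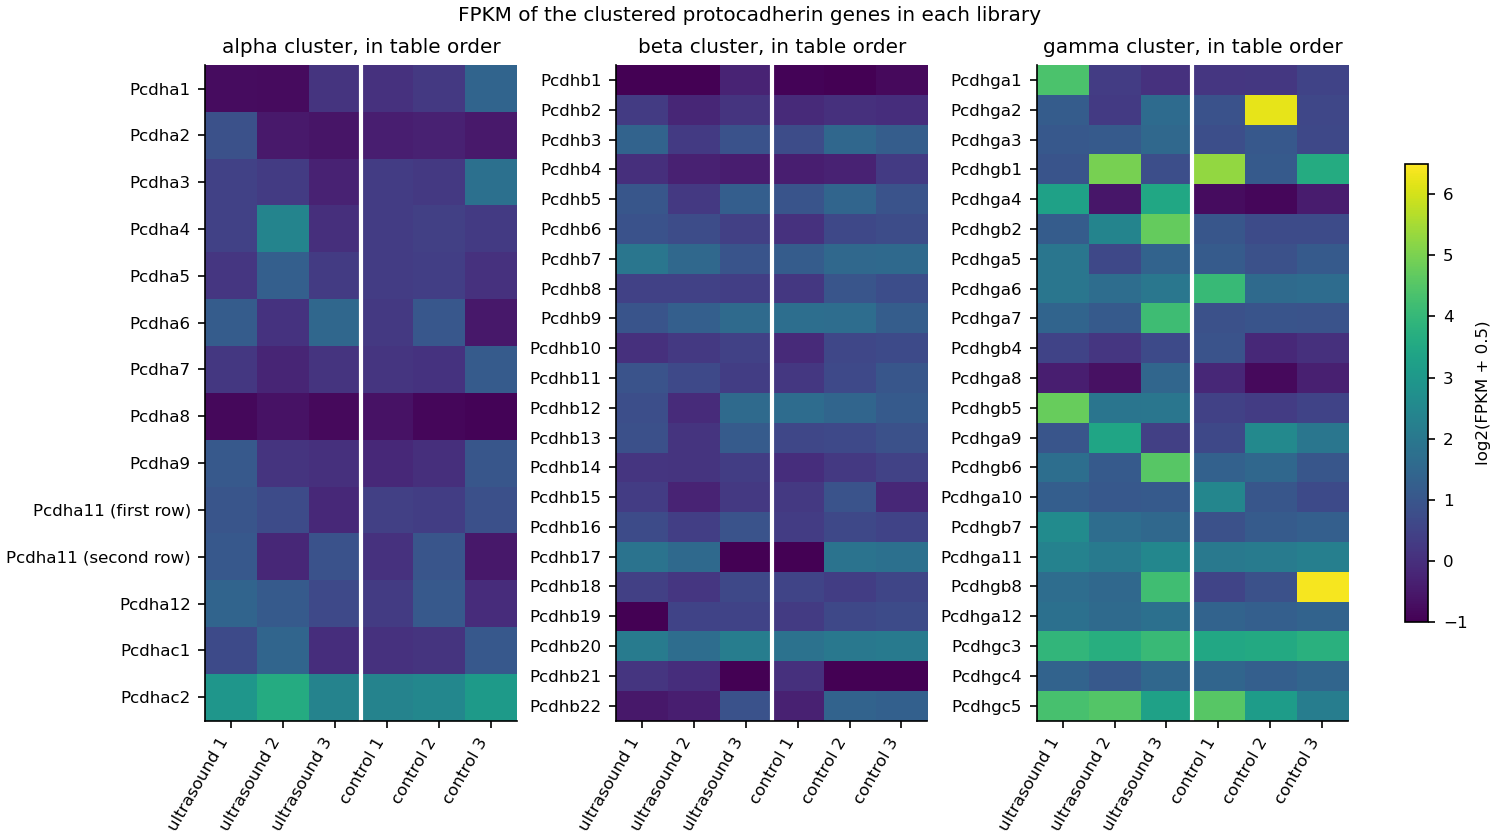
Each cell gives log2(FPKM + 0.5) of 1 clustered protocadherin gene (rows, in table order along the chromosome) in 1 library (columns, ultrasound left of the white line and controls right). Pcdhb20 and Pcdhgc3 keep a similar colour across libraries, while single gamma A and gamma B genes are bright in 1 library and dark in the others, such as Pcdhga2 at 74.3 FPKM in control 2. Pcdhac2, from 4.59 to 11.7 FPKM, varies more than Pcdhb20 and Pcdhgc3.

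Of the C-type genes, which the rule of choice did not set apart, Pcdhac2 was the highest alpha gene in each of the 6 libraries. Pcdhac2, an alpha gene needed by serotonergic axons to spread through the brain, had 7.22, 11.7 and 4.59 FPKM in ultrasound libraries 1 to 3, against 4.66, 5.05 and 8.04 FPKM in controls 1 to 3. The groups overlapped, and its log2 fold change (ultrasound minus control) of 0.46 (SE 0.39) had an adjusted p of 0.976 in edgeR. None of 3 markers of serotonergic cell bodies reached the expression minimum, and the 3 summed to at most 0.269 FPKM in a library. Pcdhac1 had 1.12, 2.25 and 0.478 FPKM with ultrasound and 0.547, 0.603 and 1.60 FPKM in controls. Both alpha C-type genes were highest in ultrasound 2, the library with the most 18S RNA, whose part was not tested, and without it their log2 fold changes were -0.01 for Pcdhac2 and -0.21 for Pcdhac1.

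Pcdhgc3, a gamma C-type gene also expressed in astrocytes and known to promote dendrite branching, had 14.9, 12.6 and 16.4 FPKM in ultrasound libraries and 10.9, 11.3 and 13.1 FPKM in controls. On this scale ultrasound 2 lay below control 3. Scaled with TMM factors, which correct library sizes for differences in composition, it had 90.2, 84.2 and 101.0 CPM (counts scaled to library size) with ultrasound and 67.4, 67.7 and 81.3 CPM in controls, and the groups did not overlap. Its log2 fold change of 0.35 (SE 0.14) reached an unadjusted p of 0.0356 but did not pass in the edgeR quasi-likelihood test (adjusted p = 0.973). The 8 astrocyte markers summed to 601.5 to 731.0 FPKM with ultrasound and 569.5 to 678.2 FPKM in controls, and their part in this value was not tested.

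Pcdhgc4, the gamma gene that neurons need for survival, had 2.12, 1.64 and 2.36 FPKM with ultrasound and 2.22, 1.895 and 2.24 FPKM in controls, overlapping, with a log2 fold change of -0.02 (SE 0.20). Pcdhgc5, which is known to bind GABA-A receptors at synapses, had 19.3, 22 and 9.27 FPKM with ultrasound and 23.2, 8.27 and 4.06 FPKM in controls. It overlapped between the groups, with a log2 fold change of 0.55 (SE 0.69) that was 1.52 without control 1 and 0.15 without control 3. The 3 gamma C-type genes thus differed in their spread: the SD within groups of log2(CPM + 0.5) was 0.14 for Pcdhgc3, 0.18 for Pcdhgc4 and 1.02 for Pcdhgc5, against a median of 0.26 over the 15740 genes tested.

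Among gamma A and gamma B genes, 5 different genes held the largest share of the family in the 6 libraries. By FPKM it was Pcdhgb5 in ultrasound 1 with 20.4% of the gamma sum, Pcdhgb1 in ultrasound 2 with 28.0%, Pcdhgb2 in ultrasound 3 with 16.9%, Pcdhgb1 again in control 1 with 32.8%, Pcdhga2 in control 2 with 59.3% and Pcdhgb8 in control 3 with 59.6%. Pcdhga2 had 23756 counts in control 2, where the other 5 libraries had 169 to 574. Pcdhgb8, which the table lists as a polymorphic pseudogene, had 16692 counts in control 3 and 3977 in ultrasound 3, where the other 4 libraries had 279 to 619. The leader was the same gene in all 6 libraries in the other two families, Pcdhac2 in alpha with 32.5% to 44.1% of the sum and Pcdhb20 in beta with 10.9% to 15.3%.

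**Figure D2:**
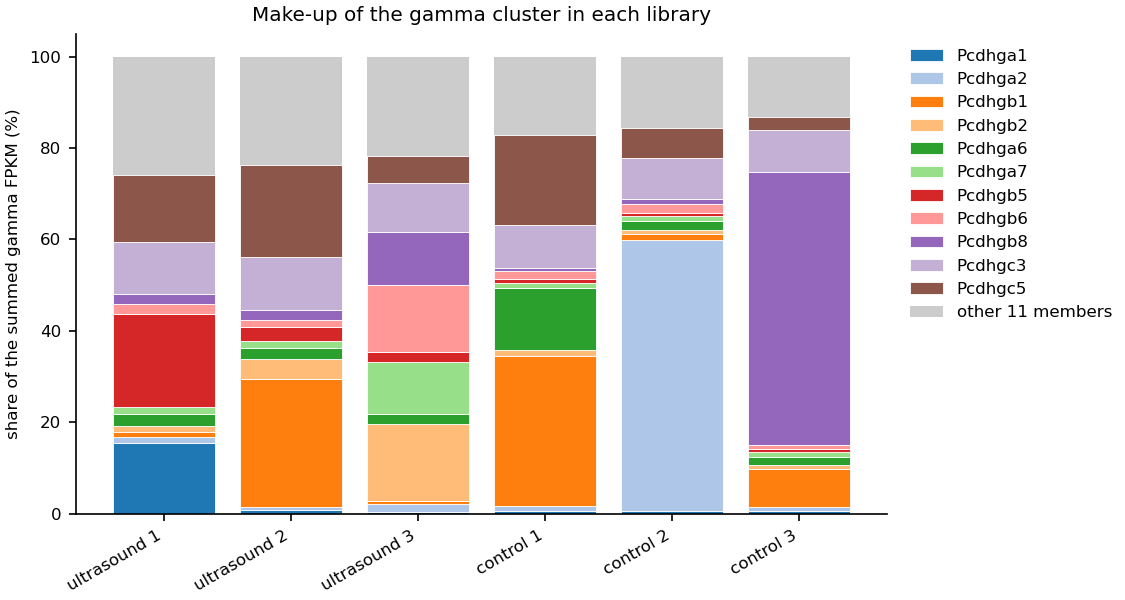
Stacked bars give the percentage of the summed gamma FPKM held by each gene in each library, with the 11 genes that reached 10% in at least 1 library in colour and the other 11 in grey. Pcdhga2 fills 59.3% of control 2 and Pcdhgb8 59.6% of control 3, while Pcdhgc3 keeps 9.0% to 11.6% in all 6 libraries.

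A gene was counted as uneven where its highest FPKM was at least 5 times the median of the other 5 libraries, a multiple chosen after the values were seen. That median had to be above 0, which left out Pcdhb1 and Pcdhb21, whose median was 0. This held for 12 of 22 gamma genes (54.5%), 2 of 14 alpha genes and 1 of 22 beta genes, against 2.33% of all tested genes. Of the 2 alpha genes, Pcdha2 was below the expression minimum and so was not among the tested genes. The 12 were 7 of 12 gamma A genes and 5 of 7 gamma B genes, with none of the 3 C-type genes. In 9 of these 12 a single library stood out, with FPKM 4.70 to 29.1 times that of the next library: Pcdhga1 and Pcdhgb5 in ultrasound 1, Pcdhgb2, Pcdhga7, Pcdhga8 and Pcdhgb6 in ultrasound 3, Pcdhga6 in control 1, Pcdhga2 in control 2 and Pcdhgb8 in control 3. The other 3 were high in more than 1 library. Pcdhga4 was high in ultrasound 1 and 3, Pcdhgb1 in ultrasound 2, control 1 and, at a lower level, control 3, and Pcdhga9 in ultrasound 2 and, with 5.24 and 3.38 FPKM, in controls 2 and 3. The part of read assignment among the shared exons in these differences was not tested.

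While single gamma genes varied, their sum did not vary in proportion. The gamma A and gamma B sums moved apart most clearly in the controls. Gamma A genes summed to 297.4, 172.0 and 290.9 CPM with ultrasound and 190.4, 495.1 and 116.6 CPM in controls, while gamma B genes summed to 279.7, 311.9 and 408.4 CPM with ultrasound and 296.0, 52.7 and 552.3 CPM in controls. Control 2, the highest for gamma A, was thus the lowest for gamma B, and control 3 the reverse. A single gene made up most of each high sum: Pcdhga2 had 380.5 CPM in control 2 and Pcdhgb8 had 440.1 CPM in control 3. The highest library exceeded the lowest by a median of 9.29-fold over single gamma genes in FPKM, and by 1.42-fold for the gamma sum in FPKM and 1.28-fold in TMM-scaled CPM. The variance of the sum over the 6 libraries was 0.0527 of the summed variances of the single genes, a ratio that is 1 for genes that vary independently and falls below 1 where some are low when others are high. It was 2.06 for alpha and 2.55 for beta genes, and the genes that vary most in CPM weigh most in it. The genes of these families did not all move together. In control 3 Pcdha3 was at its highest (17.5 CPM) and Pcdha6 at its lowest (1.21 CPM). Pcdhb17 was listed at 0 in ultrasound 3 and control 1, where Pcdhb12 was highest (8.59 and 9.07 CPM). These ratios describe 6 libraries and were not tested.

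**Figure D3:**
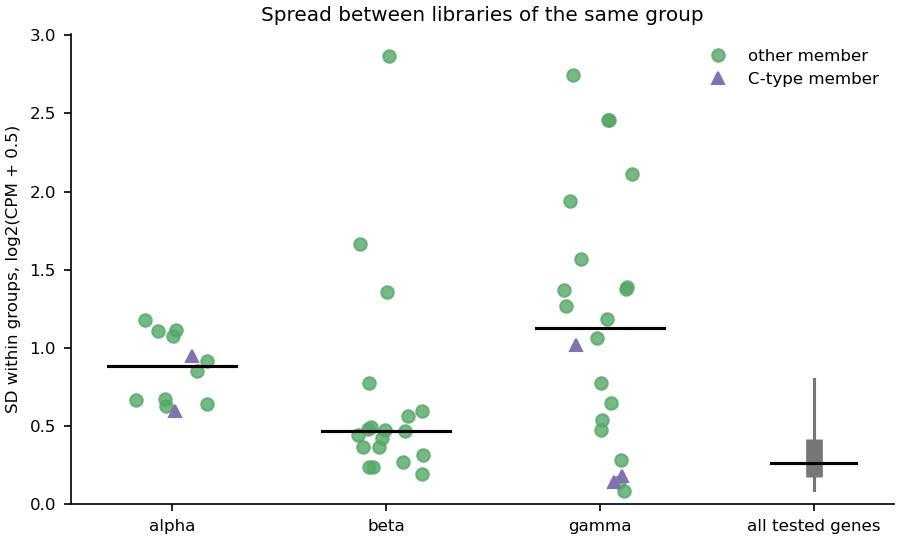
Points give, for each tested member, the SD between libraries of the same group on the log2(CPM + 0.5) scale, pooled over both groups, and lines give each family's median. The grey bar spans the middle of all tested genes (thick, quartiles; thin, the 5th to 95th percentile). Medians are 0.88 for alpha, 0.47 for beta and 1.13 for gamma genes, against 0.26 for all tested genes, and the 4 lowest gamma points are Pcdhga12, Pcdhgc3, Pcdhga11 and Pcdhgc4.

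Ultrasound was compared with control per family by the summed TMM-scaled CPM, which has no test here because the genes were taken as a group with earlier results known. The gamma sum was 842.4, 782.5 and 894.4 CPM in ultrasound libraries 1 to 3, against 766.7, 696.1 and 799.2 CPM in controls 1 to 3. Control 3 lay above ultrasound 2, so the groups overlapped. The means were 839.8 ± 56.0 CPM with ultrasound and 754.0 ± 52.7 CPM in controls (SD, n = 3 each), a log2 difference of 0.16. It was 0.03 in FPKM and 0.74 when the largest gene of each library was left out, an alternative added after the values were seen. In FPKM that gene held 20.4%, 28.0% and 16.9% of the sum in ultrasound libraries 1 to 3, against 32.8%, 59.3% and 59.6% in controls 1 to 3. Leaving it out thus took a larger share from each control, which raises the 0.74 by construction.

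The alpha sum was 135.3, 183.2 and 89.0 CPM with ultrasound and 78.6, 97.9 and 136.0 CPM in controls. Ultrasound 3 lay within the range of the controls and control 3 within that of the ultrasound libraries. The log2 difference of 0.36 was 0.11 without ultrasound 2, 0.18 without control 1, 0.57 without control 3 and 0.63 without ultrasound 3. The beta sum, in which constant exons have no part, was 118.4, 102.5 and 118.2 CPM with ultrasound and 93.0, 143.9 and 141.9 CPM in controls, a log2 difference of -0.13 that was -0.02 without control 2, -0.04 without control 3 and -0.34 without control 1. All 3 ultrasound values lay between those of control 1 and of the other two controls. This order depends in part on genes listed at 0. Pcdhb17 was listed at 0 in ultrasound 3 and control 1 and had 13.7 to 15.9 CPM in the other libraries. Pcdhb19 was listed at 0 in ultrasound 1 and had 5.99 to 9.25 CPM in the others.

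**Figure D4:**
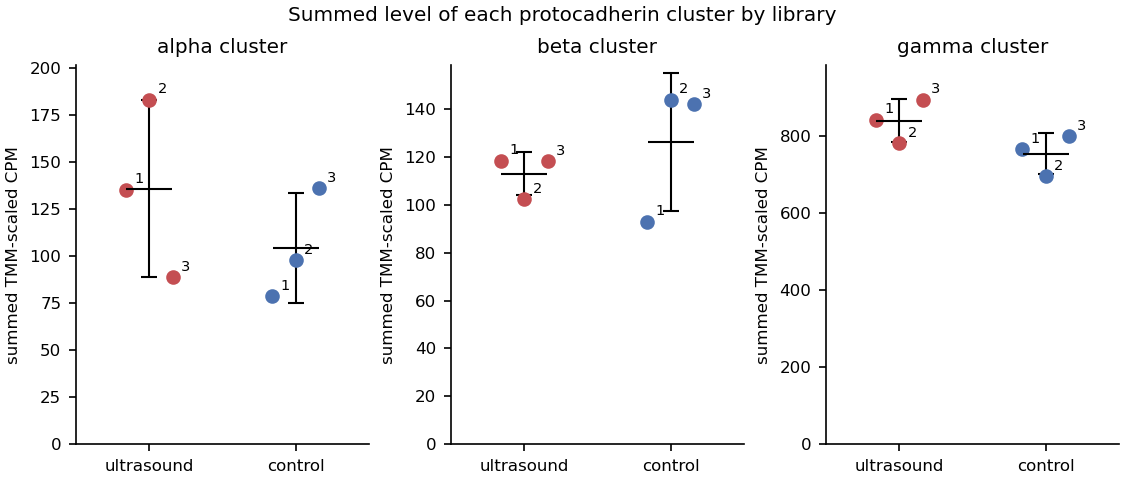
Points give the summed TMM-scaled CPM of all alpha, beta or gamma genes in each library (numbers are the replicate numbers), with the mean and SD of 3 libraries as lines; axes start at 0. The groups overlap in each family, from 782.5 to 894.4 CPM with ultrasound and 696.1 to 799.2 CPM in controls for gamma.

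None of the 53 tested members passed in the edgeR quasi-likelihood test at an adjusted p under 0.05, a threshold that 1 of 15740 tested genes met (0.00635%), and the smallest adjusted p among them was 0.973. With an unadjusted p under 0.05, 7 members were higher with ultrasound, where 2.45% of all tested genes were, and 0 were lower, where 2.32% were. All 7 were gamma genes. Among all genes at that p, 51.4% were higher with TMM scaling, 32.7% without it and 36.5% in limma on log2(FPKM + 0.5). The next counts take either direction and all 3 families. Members at that p numbered 11 without ultrasound 2, 10 without ultrasound 3 and 5 without control 2 or control 3. Of all tested genes, 675 of 15779 were at that p without ultrasound 2 and 744 of 15707 without ultrasound 3. Without control 2 they were 646 of 15765, and without control 3 they were 807 of 15684. DESeq2 passed 2 members, Pcdhga4 and Pcdhgb5, and 29 genes in all. Among the named members it gave no adjusted p for Pcdhga2, Pcdhga7 and Pcdhgb8, which therefore could not pass in it. The median log2 fold change was 0.51 over 12 tested alpha genes (9 higher), -0.07 over 19 beta genes (7 higher) and 0.47 over 22 gamma genes (16 higher), against -0.01 over all tested genes, of which 48.8% were higher. Since gamma genes may share reads, their counts are not independent of each other. The alpha median was -0.05 without ultrasound 2.

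In TMM-scaled CPM, 7 of the 22 gamma genes (31.8%) had every ultrasound library above every control, as did 5.69% of all tested genes. No member of the 3 families had every ultrasound library below every control, as 5.66% of all tested genes did. The 7 were Pcdhga3, Pcdhga7, Pcdhga12, Pcdhgb2, Pcdhgb5, Pcdhgb7 and Pcdhgc3. In FPKM 5 of them remained, without Pcdhga3 and Pcdhgc3, where 3.7% of all tested genes had that order, and 0 members had the opposite order, as 7.08% of all tested genes did. They fell into 2 kinds: in Pcdhgb5, Pcdhgb2 and Pcdhga7 1 ultrasound library stood far above the rest, and in Pcdhga12, Pcdhgc3, Pcdhga3 and Pcdhgb7 none did.

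Pcdhgb5, the member with the smallest p, is of the first kind. It had 26.7, 3.30 and 3.36 FPKM in ultrasound libraries 1 to 3, against 0.860, 0.753 and 0.909 FPKM in controls 1 to 3. Every ultrasound library lay above every control, and ultrasound 1 far above the other two ultrasound libraries. Its log2 fold change of 3.72 (SE 0.94, unadjusted p = 0.00783, edgeR adjusted p = 0.973) became 2.05 without ultrasound 1. Its adjusted p was 0.0433 in DESeq2, the lowest of the alternatives, which reached up to 0.998.

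Pcdhgb2 had 1.78, 4.77 and 26.1 FPKM with ultrasound and 1.52, 1.15 and 1.13 FPKM in controls, a log2 fold change of 3.12 (SE 0.998) that was 1.45 without ultrasound 3. Pcdhga7 had 2.18, 1.67 and 17.4 FPKM with ultrasound and 1.33, 1.42 and 1.41 FPKM in controls, a log2 fold change of 2.37 (SE 0.94) that was 0.52 without ultrasound 3. Outside its highest library each gene was thus closer to the controls. Pcdhga4 had 9.29, 0.187 and 10.5 FPKM with ultrasound and 0.0895, 0.0488 and 0.249 FPKM in controls, so that 2 ultrasound libraries were high and ultrasound 2 lay among the controls. At 5.72 on the log2 scale (SE 1.53), its difference did not pass in edgeR (adjusted p = 0.973) and passed in DESeq2 (adjusted p = 0.0216), and the adjusted p lay between 0.0216 and 0.998 over the alternatives.

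Pcdhga12 is of the second kind and had the smallest within-group SD of all tested members, 0.08. It had 2.93, 2.54 and 2.91 FPKM with ultrasound and 2.13, 1.92 and 2.13 FPKM in controls, so the groups did not overlap. Its log2 fold change of 0.47 (SE 0.16, unadjusted p = 0.0170, edgeR adjusted p = 0.973) did not pass, and it lay between 0.36 and 0.51 over all alternatives. Pcdhgb7 had 5.599, 2.70 and 2.39 FPKM with ultrasound and 1.303, 1.74 and 1.92 FPKM in controls, with a log2 fold change of 1.13 (SE 0.34) that was 0.69 without ultrasound 1. Pcdhga3 had 1.59, 1.66 and 2.38 FPKM with ultrasound and 1.25, 1.60 and 1.04 FPKM in controls, with a log2 fold change of 0.57 (SE 0.27). Pcdhga11, named after its values were seen for its small spread, had 4.55, 3.71 and 5.04 FPKM with ultrasound and 3.58, 3.85 and 4.22 FPKM in controls, overlapping, with a log2 fold change of 0.22 (SE 0.17).

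Over the 10 gamma genes that were not uneven in this sense, 8 had a higher value with ultrasound and the median log2 fold change was 0.41, from -0.53 for Pcdhga10 to 1.13 for Pcdhgb7. This group was formed from the measured values and has no test. As shares of the gamma sum in FPKM, Pcdhgc3 held 11.4%, 11.6% and 10.6% with ultrasound and 9.29%, 9.0% and 9.24% in controls, and Pcdhga12 held 2.24%, 2.33% and 1.88% with ultrasound and 1.81%, 1.53% and 1.5% in controls. Both shares were higher in each ultrasound library than in each control, as were those of Pcdhga7, Pcdhga11, Pcdhgb2, Pcdhgb5 and Pcdhgb7. No gamma gene had the opposite order. The share also depends on the uneven genes: Pcdhga2 held 59.3% of control 2 and Pcdhgb8 59.6% of control 3, which lowers every other share there.

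**Figure D5:**
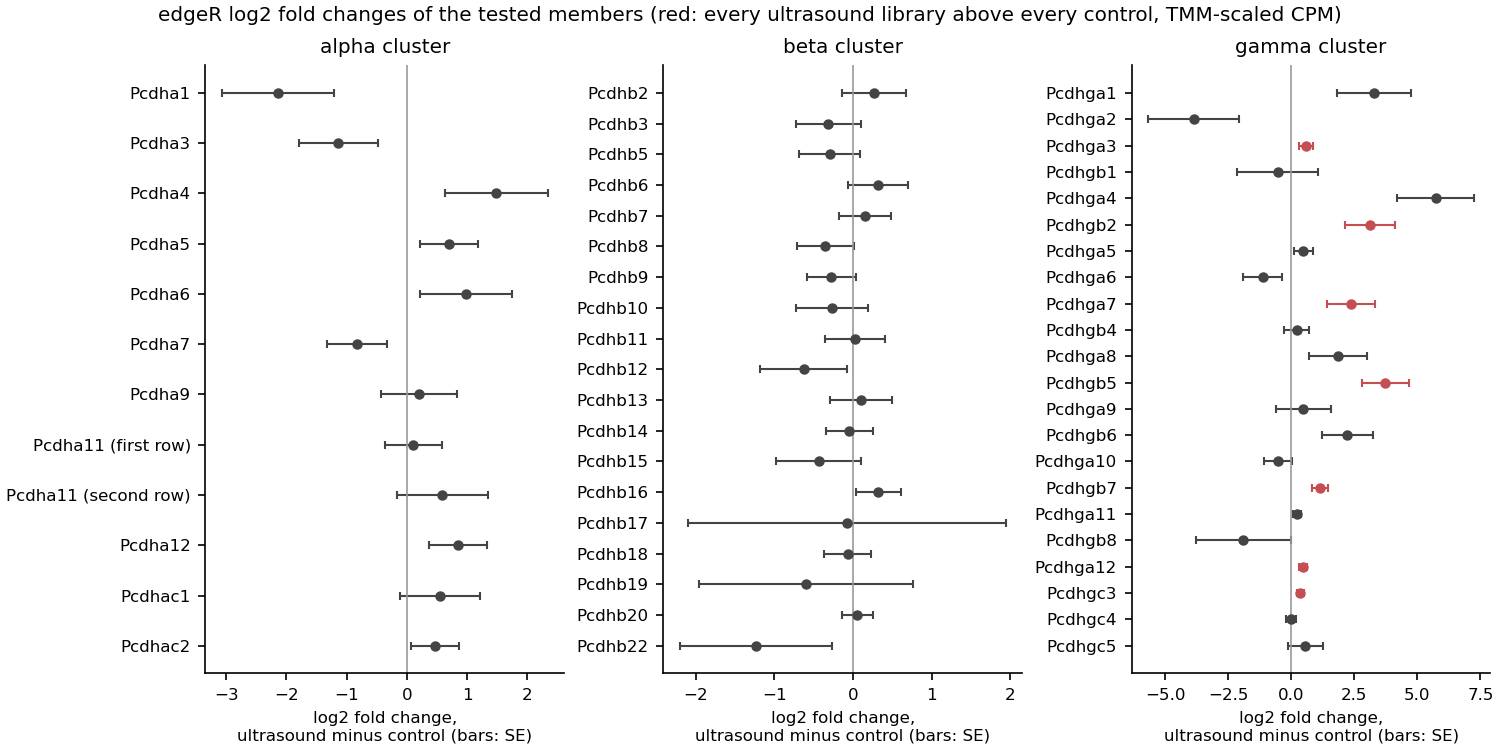
Points give the edgeR log2 fold change, ultrasound minus control, of each tested member in table order, with SE as bars; the axes differ between panels. Red marks the 7 genes, all gamma, with every ultrasound library above every control in TMM-scaled CPM, from Pcdhgc3 at 0.35 to Pcdhgb5 at 3.72.

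Of the 6 gamma genes with lower ultrasound values, 4 were uneven genes whose highest library was a control, the other two being Pcdhga10 and Pcdhgc4. Pcdhga2 had 1.79, 0.702 and 2.55 FPKM with ultrasound and 1.34, 74.3 and 1.02 FPKM in controls. Its log2 fold change of -3.88 (SE 1.81) rested on control 2 and was 0.52 without it. Pcdhga6 had 3.34, 2.71 and 3.39 FPKM with ultrasound and 16.1, 2.54 and 2.66 FPKM in controls, with -1.15 (SE 0.77) and 0.32 without control 1. Pcdhgb8 had 2.73, 2.38 and 18 FPKM with ultrasound and 0.955, 1.31 and 84.6 FPKM in controls, with -1.91 (SE 1.87) and 2.79 without control 3. Pcdhgb1, high in 3 libraries, had 1.44, 30.6 and 1.23 FPKM with ultrasound and 38.4, 1.70 and 11.9 FPKM in controls, with -0.55 (SE 1.60), 0.81 without control 1 and -3.71 without ultrasound 2. In each of these 4 genes the direction turned when 1 control was left out, and none passed.

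The alternate alpha genes were low, between 0.0825 and 1.41 mean FPKM. Pcdha1, the first gene of the cluster, had 0.0902, 0.0801 and 0.591 FPKM with ultrasound and 0.546, 0.677 and 2.17 FPKM in controls. Ultrasound 3 lay between controls 1 and 2, and the log2 fold change of -2.14 (SE 0.93, unadjusted p = 0.0564, edgeR adjusted p = 0.973) did not pass. It was -3.67 without ultrasound 3, -1.73 without ultrasound 1 or ultrasound 2 and -1.05 in limma on log2(FPKM + 0.5). Pcdha3 had 0.868, 0.745 and 0.317 FPKM with ultrasound and 0.764, 0.696 and 2.90 FPKM in controls, and Pcdha7 had 0.657, 0.359 and 0.587 FPKM with ultrasound and 0.613, 0.574 and 1.71 FPKM in controls. All 3 genes were highest in control 3, the library with olfactory bulb transcripts, whose part was not tested. Without control 3 the log2 fold changes of Pcdha3 and Pcdha7 were -0.13 and -0.11, against -1.14 (SE 0.66) and -0.83 (SE 0.50) with it, and Pcdha1 fell below the expression minimum.

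Among alpha genes with higher ultrasound values, Pcdha4 had 0.861, 4.74 and 0.507 FPKM with ultrasound and 0.768, 0.844 and 0.713 FPKM in controls, so that 1 library set its log2 fold change of 1.49 (SE 0.86), which was -0.19 without ultrasound 2. Pcdha12, the last alternate gene, had 2.19, 1.66 and 1.08 FPKM with ultrasound and 0.731, 1.62 and 0.461 FPKM in controls, with a log2 fold change of 0.85 (SE 0.48, edgeR adjusted p = 0.973) that was 1.49 without control 2 and 0.53 without control 3. Ultrasound 3 lay below control 2. The table gives the name Pcdha11 to 2 neighbouring rows, with log2 fold changes of 0.11 (SE 0.47) for ENSMUSG00000007440 and 0.59 (SE 0.76) for ENSMUSG00000102206.

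Beta genes, each a single coding exon without a constant part, had the smallest median spread between libraries of the 3 families. Their tested log2 fold changes ran from -1.24 to 0.32, and the smallest unadjusted p was 0.245. Pcdhb20, the highest beta gene, had 3.81, 2.71 and 4.01 FPKM with ultrasound and 3.05, 3.50 and 3.80 FPKM in controls, a log2 fold change of 0.06 (SE 0.20). Pcdhb7 had 3.36, 2.38 and 1.43 FPKM with ultrasound and 1.79, 2.38 and 2.44 FPKM in controls, and Pcdhb9 had 1.43, 1.94 and 2.53 FPKM with ultrasound and 2.8, 2.73 and 1.81 FPKM in controls. All 3 overlapped between the groups.

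The 4 beta genes listed at 0 in at least 1 library are singled out here after their values were seen. Pcdhb17 had 708, 580 and 0 counts with ultrasound and 0, 992 and 581 in controls, and Pcdhb19 had 0, 337 and 320 counts with ultrasound and 337, 515 and 351 in controls. In both genes every library not listed at 0 held 320 counts or more. Pcdhb21 had 143, 120 and 0 counts with ultrasound and 159, 0 and 0 in controls. Its neighbour Pcdhb22, which overlaps it by 455 bases in the table, had 63, 94 and 431 counts with ultrasound and 132, 961 and 557 in controls. Pcdhb22 was thus high in the same 3 libraries in which Pcdhb21 was listed at 0, and together they held 206, 214 and 431 counts with ultrasound and 291, 961 and 557 in controls. Pcdhb1, the remaining one, had 0, 0 and 42 counts with ultrasound and 4, 0 and 8 in controls.

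A pair of lists of other genes bears on protocadherin function. CTCF and cohesin loop the promoters of these families to distant enhancers, and DNA methylation and SMCHD1 help to silence them. Of 27 tested genes of this list of 29, 12 had higher and 15 lower values with ultrasound (median log2 fold change -0.02), and 0 had an unadjusted p under 0.05 in either direction. Mau2, a partner of the cohesin loader, had 7.00, 8.14 and 7.95 FPKM with ultrasound and 9.79, 9.59 and 9.57 FPKM in controls, with a log2 fold change of -0.28 (SE 0.13, unadjusted p = 0.0615, edgeR adjusted p = 0.973). Every ultrasound library lay below every control, an order that 5.66% of all tested genes had in TMM-scaled CPM. Yy1, a zinc finger factor, had 11.68, 9.01 and 10.9 FPKM with ultrasound and 12.5, 13.4 and 11.75 FPKM in controls, with a log2 fold change of -0.22 (SE 0.12), also without overlap. Cbx5, a heterochromatin protein named after its values were seen, was the 1 gene of the list with every ultrasound library above every control in TMM-scaled CPM, and its log2 fold change was 0.16 (SE 0.11). Of all tested genes 5.69% had that order, so the 1 higher and 2 lower of 27 genes are near the shares of all tested genes. Stag1, a cohesin subunit, overlapped, with -0.23 (SE 0.14).

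The second list held kinases, WAVE complex subunits and other partners that carry protocadherin signals to the actin cytoskeleton. Of 26 tested genes, 16 had higher and 10 lower values (median log2 fold change 0.02), and 0 had an unadjusted p under 0.05 in either direction. Wasf3, a WAVE actin regulator, had 25.1, 24.9 and 30.8 FPKM with ultrasound and 24.7, 22.8 and 23.0 FPKM in controls, a log2 fold change of 0.23 (SE 0.13). Axin1, a scaffold of Wnt signalling that Pcdhgc3 binds, had -0.26 (SE 0.15), and the receptor kinase Ret 0.54 (SE 0.31), with 0.741, 0.468 and 0.655 FPKM with ultrasound and 0.493, 0.376 and 0.437 FPKM in controls. In TMM-scaled CPM the groups of Axin1 did not overlap, lower with ultrasound, nor did those of Ret and of Adam10, a protease named after its values were seen, higher with ultrasound. These 2 higher and 1 lower of 26 genes are near the shares of all tested genes, 5.69% higher and 5.66% lower. No gene of either list passed over all genes.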

How the data were processed

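The authors deposited raw counts and FPKM per gene and library, per the file headers. The FPKM values, as deposited, carry a length and depth scaling by the authors. Without stating roles, the submitters' processing notes name StringTie 1.3.4d, HISAT2 2.0.4, cutadapt 1.9, edgeR, DESeq2 and the build mm10. The sources used here do not give the counting tool, whether it used strand, or how it treated reads that several genes share. Per the labels' protocols, polyadenylated RNA was sequenced as read pairs from dUTP libraries. The table holds 12 further per-library columns, which stayed out of every step.

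A mean FPKM of 0.5 or more left 15740 genes, which edgeR 4.0.16 (R 4.3.3, TMM scaling) tested by robust quasi-likelihood with no covariate, with Benjamini-Hochberg adjustment over all of them and a threshold of 0.05. SE is the log2 fold change divided by the square root of the test statistic. Alternatives used DESeq2 1.42.0, limma 3.58.1 on log2(FPKM + 0.5) and log2(FPKM + 0.1), library size scaling, a minimum of 10 summed counts, a replicate block and each library left out. The scripts were tested on simulated data. Named genes were the 5 members with the smallest p per direction, those whose groups did not overlap, the 3 highest per family, the C-type genes and the 3 list genes with the smallest p. The members and lists were chosen with earlier results of these data known. Intervals are not given for counts of PCR-amplified reads, which are not independent molecules.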

Additional observations from a re-analysis of the deposited data

How the results depend on the processing

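The count of genes past the threshold was 1 in edgeR, 29 in DESeq2, 0 in limma with a pseudocount of 0.5 and 0 with 0.1, and 1 to 4 with 1 library left out (4 without control 2 or control 3). The count of members past it was 2 in DESeq2, which gave no adjusted p for Pcdhga2, Pcdhga7 and Pcdhgb8, and 0 in each other fit. Members with an unadjusted p under 0.05 in either direction numbered 7, against 4 in limma with a pseudocount of 0.5 and 5 to 11 with 1 library left out. Of 15740 tested genes, 751 (4.77%) were at that p in edgeR, and 751 in limma with a pseudocount of 0.5. With 1 library left out, 582 to 807 genes were, of 15684 to 15779 tested. With 1 library left out, the median log2 fold change ranged from -0.055 to 0.534 for alpha, -0.25 to 0.01 for beta and 0.38 to 0.68 for gamma genes, and the log2 difference of the sums from 0.11 to 0.63 for alpha, -0.34 to -0.02 for beta and 0.11 to 0.21 for gamma. The gamma difference was 0.027 in summed FPKM and 0.74 without the largest gene of each library. That gene held a larger share of the gamma FPKM in each control than in any ultrasound library, which raises the 0.74 by construction. Of 287 alternative fits of 24 named members, 15 turned the direction, 13 of them with 1 library left out. Over these the log2 fold change ranged from -4.44 to 0.52 for Pcdhga2 (0.52 without control 2), -1.55 to 0.32 for Pcdhga6 and -3.71 to 0.81 for Pcdhgb1 (highest without control 1), -3.47 to 2.79 for Pcdhgb8 (2.79 without control 3), -0.011 to 0.758 for Pcdhac2, -0.21 to 1.23 for Pcdhac1 and -0.19 to 1.95 for Pcdha4 (lowest without ultrasound 2), -0.13 to 0.42 for Pcdhb7 (lowest without ultrasound 1), -0.038 to 0.177 for Pcdhb20 (below 0 without ultrasound 3 or control 1) and -0.13 to 0.078 for Pcdhgc4 (above 0 without ultrasound 2, control 1 or control 3). Pcdhgb8 was also at 0.00485 in limma with a pseudocount of 0.1 and at 0.17 with the replicate block. The cause was not tested, beyond the library each fit left out.

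The share of higher values among all genes at an unadjusted p under 0.05 was 32.7% without TMM scaling, 36.5% in limma with a pseudocount of 0.5 and 51.4% in edgeR with TMM. Deviations of same-numbered libraries from their group means correlated at -0.06, -0.03 and 0.08 across genes. Being deviations from means of only 3 libraries, they cannot decide whether the replicate numbers pair the libraries. With the replicate block 1 gene passed in all, 0 members passed and 8 had an unadjusted p under 0.05, as did 634 of 15740 tested genes. Pcdha1 could not be fitted without control 3, as it was below the FPKM minimum. The libraries' depth gave single members 0 to 23756 counts, and the 5 members below the minimum were not tested except in the fit with 10 summed counts.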
